A study of Mus musculus with 4 samples.

Results

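Aox1, Aox3, Aox4 and Xdh encode the aldehyde oxidases of a gene cluster on mouse chromosome 1 and the related xanthine dehydrogenase on chromosome 17. They are 4 of the 45706 genes in the count table, matched by Ensembl identifier and symbol, and they were chosen for their level before induction and for their joint change after it. That choice used the comparison described here, so the members' values are given as a description, without a test. RNA was sequenced from mouse embryonic stem cells of the V6.5 line, after infection with a lentiviral vector for guide RNAs and a Cas9 switched on by doxycycline. The labels name guides for KLF4 by itself, or for KLF2, KLF4 and KLF5 in tandem. Every library's title begins with TKO, while the 24 h titles also read KLF4 KO and the 0 h titles WT. Which guides each library carried cannot be told apart from these labels. The 24 h group (genotype KLF KO) had 24 h of doxycycline, and the 0 h group (genotype KLF WT) had none, with 2 biological replicates each, A and B. The cells came from manually picked clones grown on irradiated feeders with 15% serum, 1000 U/ml LIF and inhibitors of MEK (1 µM) and GSK3 (3 µM). Time, the drug, Cas9 activity and any KLF loss differ together between the groups and cannot be told apart.

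Aldehyde oxidases and xanthine dehydrogenase are large enzymes that carry a molybdenum cofactor, iron-sulfur clusters and FAD. Xanthine dehydrogenase turns hypoxanthine into xanthine and xanthine into uric acid, at the end of purine breakdown. Aldehyde oxidases oxidise aldehydes, retinaldehyde among them, and nitrogen heterocycles, many of them drugs, and the genes arose by duplication from a xanthine dehydrogenase ancestor. Rodents keep a cluster of these genes, whereas humans have a single active one.

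The cluster ran over 350.3 kb of chromosome 1 (GRCm38, the assembly that mm10 also names), with 4 genes in the same direction, in the order Aox1, Aox3, Aox4 and Aox2. Aox1 (ENSMUSG00000063558, chromosome 1, 58029931 to 58106413) and Aox3 (ENSMUSG00000064294, 58113130 to 58200698) were 6.7 kb apart. Aox4 (ENSMUSG00000038242, 58210397 to 58268597) lay 9.7 kb beyond Aox3, and Aox2 (ENSMUSG00000079554, 58278326 to 58380259) 9.7 kb beyond Aox4. Xdh (ENSMUSG00000024066) is on the minus strand of chromosome 17, 73883895 to 73950196. All 5 are annotated as protein-coding, and the longest coding transcript had 35 exons in Aox1, Aox3 and Aox4 and 36 in Aox2 and Xdh. Their coding sequences were alike in length (3999 to 4035 bases without the stop codon). Identity over aligned bases was 65.7% to 68.4% between aldehyde oxidases and 60.6% to 63.0% between Xdh and any of them. No stretch of 50 bases, the read length, was shared between any of the 5 genes, so reads without mismatches could not be swapped among them. Of the 50-base stretches of Aox4, 4.018% also lie in the antisense gene Gm15759, which had 1 to 5 counts per library. For Xdh 9.596%, for Aox1 0.612% and for Aox3 0% occur in transcripts of some other gene. Xdh also holds the annotated pseudogene CT025731.2 on its own strand, so its counts are the least certain.

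The bases upstream of the 4 clustered genes are shown because the guides were directed at KLF factors, which bind CACCC-like sites. They come from RefSeq (GRCm38.p6) and end before the first annotated start of each gene, and capitals mark matches to CACCC, the core of the KLF binding site, or to the longer form CCNCNCCC, on either strand.
Aox1, chr1:58029719-58029930, + strand: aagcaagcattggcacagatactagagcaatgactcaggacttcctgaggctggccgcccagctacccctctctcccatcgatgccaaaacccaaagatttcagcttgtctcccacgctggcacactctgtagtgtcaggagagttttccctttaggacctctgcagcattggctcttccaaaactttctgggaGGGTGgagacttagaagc
Aox3, chr1:58112886-58113129, + strand: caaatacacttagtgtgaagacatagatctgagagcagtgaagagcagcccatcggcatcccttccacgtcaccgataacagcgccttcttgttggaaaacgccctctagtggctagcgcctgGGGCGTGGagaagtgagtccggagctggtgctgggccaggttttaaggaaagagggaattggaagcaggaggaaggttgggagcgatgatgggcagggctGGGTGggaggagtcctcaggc
Aox4, chr1:58210147-58210396, + strand: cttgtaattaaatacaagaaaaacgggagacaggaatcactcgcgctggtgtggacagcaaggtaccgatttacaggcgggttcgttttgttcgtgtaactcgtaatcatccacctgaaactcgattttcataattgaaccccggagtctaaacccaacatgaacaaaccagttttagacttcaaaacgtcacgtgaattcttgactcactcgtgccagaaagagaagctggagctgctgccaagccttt
Aox2, chr1:58278076-58278325, + strand: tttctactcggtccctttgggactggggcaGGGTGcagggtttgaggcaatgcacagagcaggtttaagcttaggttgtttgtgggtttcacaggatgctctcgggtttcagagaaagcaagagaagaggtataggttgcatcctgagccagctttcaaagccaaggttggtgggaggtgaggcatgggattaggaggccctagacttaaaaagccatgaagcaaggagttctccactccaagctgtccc
In the whole RefSeq window of 300 bases, of which 250 lie before the RefSeq start, Aox1 held 1 CACCC match (positions -56 to -52, where -1 is the base before the start) and 1 CCNCNCCC match (-29 to -22, past the end of the stretch printed). Aox3 held a CACCC match at -27 to -23 and a CCNCNCCC match at -127 to -120. Aox4 held 0 of either, and Aox2 held 1 CACCC match at -220 to -216. Of 32851 promoters of that length, 57.5% held CACCC and 49.5% held CCNCNCCC. TGANNNNGC, a loose form of the antioxidant response element that binds NRF2, had 1 match in Aox2 (-106 to -98). It had 0 in Aox1, Aox3 and Aox4, and 41.3% of all promoters held it. The motifs can overlap, and a match describes these letters only. For Xdh no sequence is shown.

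Each library held 46031578 to 52412844 counts, and 18005 genes passed the filter on low counts. CPM, a library's count of a gene scaled by its total, was computed here from the deposited counts after TMM scaling. Replicate A at 0 h stood apart from the other libraries, since its deviations from the mean of all libraries followed GC content (across genes, r was 0.487 there, against -0.165 to -0.228 in the others). The aldehyde oxidases and Xdh have a GC content of 46.4% to 50.8%, and the median of the genes tested is 50.3%. The targeted genes themselves did not pass the test, with log2 fold changes of -0.25 for Klf2, -0.29 for Klf4 and -0.72 for Klf5 (edgeR quasi-likelihood F test, Benjamini-Hochberg adjusted p = 0.58, 0.223 and 0.0567). A small insertion or deletion need not change a transcript's level, so these values do not check the knockout.

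Aox3, a main aldehyde oxidase of mouse liver, was the most abundant of the family in every library. It had 16.1 CPM in replicate A and 13.5 in B at 24 h, against 9.29 in A and 9.05 in B at 0 h. Both 24 h libraries were above both 0 h libraries, and the gap between the groups was larger than the spread within either. The means were 14.8 ± 1.82 CPM at 24 h and 9.17 ± 0.168 CPM at 0 h (SD, n = 2), which is a log2 ratio of 0.69 (SE 0.15), or 1.61-fold. These values rest on 799 and 632 reads at 24 h and 470 and 440 at 0 h.

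Aox4, best known in mice from the Harderian gland and skin, where it acts on retinaldehyde, had the largest fold change of the 3 aldehyde oxidases chosen. It was at 3.56 CPM in A and 3.48 in B at 24 h, against 1.62 in A and 1.17 in B at 0 h. The 24 h libraries were close to each other, and both were above the 0 h libraries, which differed more. The means were 3.52 ± 0.0558 CPM at 24 h and 1.40 ± 0.317 CPM at 0 h (SD, n = 2), which is a log2 ratio of 1.33 (SE 0.24), or 2.52-fold. The reads behind them were 177 and 163 at 24 h and 82 and 57 at 0 h.

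Aox1, the mouse counterpart of the human enzyme, was close to Aox4 in level at 0 h and below it at 24 h. It had 2.19 CPM in A and 1.88 in B at 24 h, against 1.11 in A and 1.56 in B at 0 h. The groups did not overlap, but the closest libraries of the groups, 24 h B and 0 h B, were 0.317 CPM apart, about as far as the SD at 0 h. The means were 2.04 ± 0.221 CPM at 24 h and 1.34 ± 0.323 CPM at 0 h (SD, n = 2), which is a log2 ratio of 0.61 (SE 0.27), from 109 and 88 reads at 24 h and 56 and 76 at 0 h. The log2 fold change of Aox1 was 0.38 with 0 h replicate A left out and 0.88 with 0 h replicate B left out.

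Xdh was near the limit of detection. It had 8 reads in A and 4 in B at 24 h, against 1 in A and 0 in B at 0 h, and did not reach the filter. At 0 h a count of 0 allows a level of up to 0.0617 CPM in replicate B (3 counts of the scaled total, counting error only). The summed counts, 12 at 24 h and 1 at 0 h, gave 0.124 and 0.0101 CPM and a ratio of 12.3, with an exact 95% counting interval of 1.83 to 527.0. That interval covers counting error only and not the spread between cultures. Xdh was chosen for this change, so the interval is a description and not a test. Without 0 h replicate A, the 0 h group has no Xdh read. The 24 h level was 2.01 times the level of 3 counts in 0 h replicate B. That value leaves out the counting error of the 24 h reads, so it is not a lower bound.

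**Figure D1:**
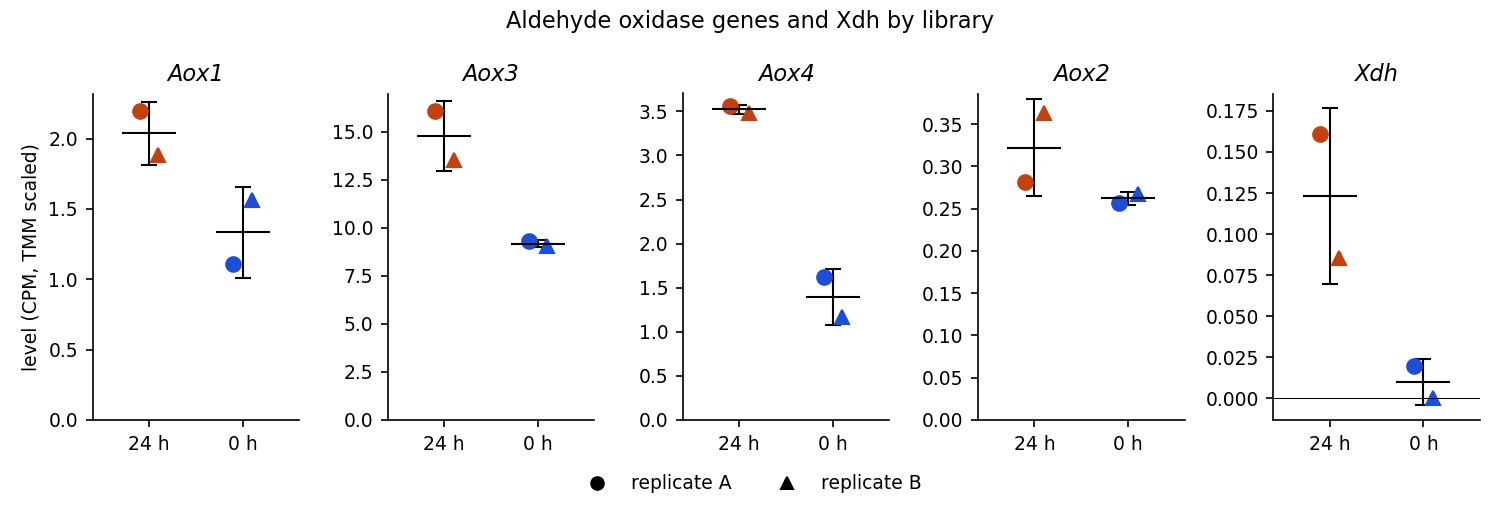
Level of each aldehyde oxidase gene and of Xdh, in CPM on a linear axis per gene, in the 24 h and 0 h libraries. Points are libraries (circle A, triangle B), and the bar and whiskers give the mean ± SD (n = 2). Aox3 sits at 13.5 to 16.1 CPM at 24 h and at 9.05 to 9.29 CPM at 0 h, while Xdh stays below 0.2 CPM in every library.

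Aox2, the last gene of the cluster, known in mice from the olfactory mucosa, was not among the genes chosen. It had 0.282 CPM in A and 0.363 in B at 24 h, against 0.257 in A and 0.267 in B at 0 h, from 13 to 17 reads per library. Its difference was 0.29 on the log2 scale (SE 0.45) and did not pass (edgeR, adjusted p = 0.717). The exact 95% counting interval of its ratio, 0.704 to 2.15, covers counting error only. It includes the fold change of Aox1 and of Aox3 and lies below the 2.52-fold of Aox4. That leaves out the error of Aox4 itself, with an SE of 0.24 on the log2 scale. Whether Aox2 differs from its neighbours in its change was not tested.

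All 4 chosen genes had both 24 h libraries above both 0 h libraries, as 29.3% of all genes tested had, while 29.5% had both below. Of the 3 that were tested, edgeR's test called 2, Aox3 and Aox4, beside 6.80% of all genes (4.15% higher and 2.65% lower). Of all calls 61.1% were higher, and 36.9% with each library's GC and length trend removed. Which members were called changed with some libraries left out. Since the genes were chosen for this change, nothing is read from these counts or calls.

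Levels were compared between genes per kilobase of annotated exon (RPKM). At 24 h the order was Aox3 (2.10 ± 0.259 RPKM), Aox4 (0.418 ± 0.00663), Aox1 (0.234 ± 0.0255), Aox2 (0.0559 ± 0.00999) and Xdh (0.0134 ± 0.00582; SD, n = 2), and each neighbour in that order was further apart than its spread. At 0 h it was Aox3 (1.30 ± 0.0239 RPKM), Aox4 (0.166 ± 0.0376), Aox1 (0.154 ± 0.0372), Aox2 (0.0454 ± 0.00129) and Xdh (0.00108 ± 0.00152; SD, n = 2). There Aox4 and Aox1 did not differ beyond their spread, and per kilobase of the longest coding transcript their order was the other way (0.281 and 0.302 RPKM). The level of the whole cluster, summed over the 4 aldehyde oxidases, reached 3.01 and 2.61 RPKM at 24 h, against 1.68 and 1.65 RPKM at 0 h. Aox3 made up 75.9% and 73.5% of it at 24 h (A and B), and 78.4% and 77.9% at 0 h. Aox4 took a share of 14.1% and 15.8% at 24 h, against 11.4% and 8.4% at 0 h. The share of Aox1 was 8.4% and 8.3% at 24 h, within the 7.6% and 10.9% of the 0 h libraries. Even the most abundant member was a moderate transcript, with a mean level above 66.8% at 24 h and 62.6% at 0 h of the 26673 genes with any read.

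The genes outside the family within 500 kb of the cluster did not pass the test. Of 27 genes of the count table there, 15 were tested and 0 passed edgeR's test, beside 6.80% of all genes tested. With 15 genes a count of 0 is close to that share. An unadjusted p under 0.05 in edgeR was seen for 5 of the 15, as for 4642 of all 18005 genes. DESeq2's Wald test called 1 of the 15 and limma voom 0. Over all genes DESeq2's Wald test called 1037 higher and 950 lower. The median log2 fold change of the 15 was 0.23, beside -0.01 for all genes tested. Both 24 h libraries were above both 0 h libraries in 8 of the 15 and below them in 1. Of all genes tested, 29.3% were above in this way and 29.5% below. Sgo2a, which protects cohesin at centromeres and lies 4.0 kb before Aox1, was at 77.5 and 79.7 CPM at 24 h and 74.6 and 82.2 CPM at 0 h (A and B), a difference of 0.00 on the log2 scale (SE 0.11; edgeR, adjusted p = 0.985). Its groups overlapped, as did those of Kctd18, 11.0 kb from the cluster, with a log2 fold change of -0.05. Kctd18 overlaps Sgo2a on the other strand, and the counts of both are uncertain. On the far side Bzw1, Clk1 and Ppil3 had log2 fold changes of -0.08, 0.23 and 0.32 (adjusted p = 0.687, 0.299 and 0.172 in edgeR).

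Nearest to the cluster's end, 3.3 kb beyond Aox2 on the other strand, lies Gm37607, a transcript of unproven coding status. It was at 1.37 CPM in A and 2.16 in B at 24 h, against 0.534 in A and 0.843 in B at 0 h. Both 24 h libraries were above both 0 h libraries, with a log2 fold change of 1.35 (SE 0.36), but it did not pass (adjusted p = 0.0734 in edgeR's test, 0.0307 in DESeq2's Wald test, and 1.85e-05 without 0 h replicate B to 0.443 without 24 h replicate B over all alternatives). The long noncoding RNA Gm15834, chosen after its values were seen, is 124.9 kb beyond the cluster and overlaps Fam126b on the other strand. It was at 1.03 and 0.662 CPM at 24 h and 0.257 and 0.247 CPM at 0 h, a difference of 1.74 on the log2 scale (SE 0.42; edgeR, adjusted p = 0.0561), and it passed with upper-quartile scaling, with library size alone and without a filter, among other settings. Both transcripts were of low abundance, as Aox1 and Aox4 were.

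**Figure D2:**
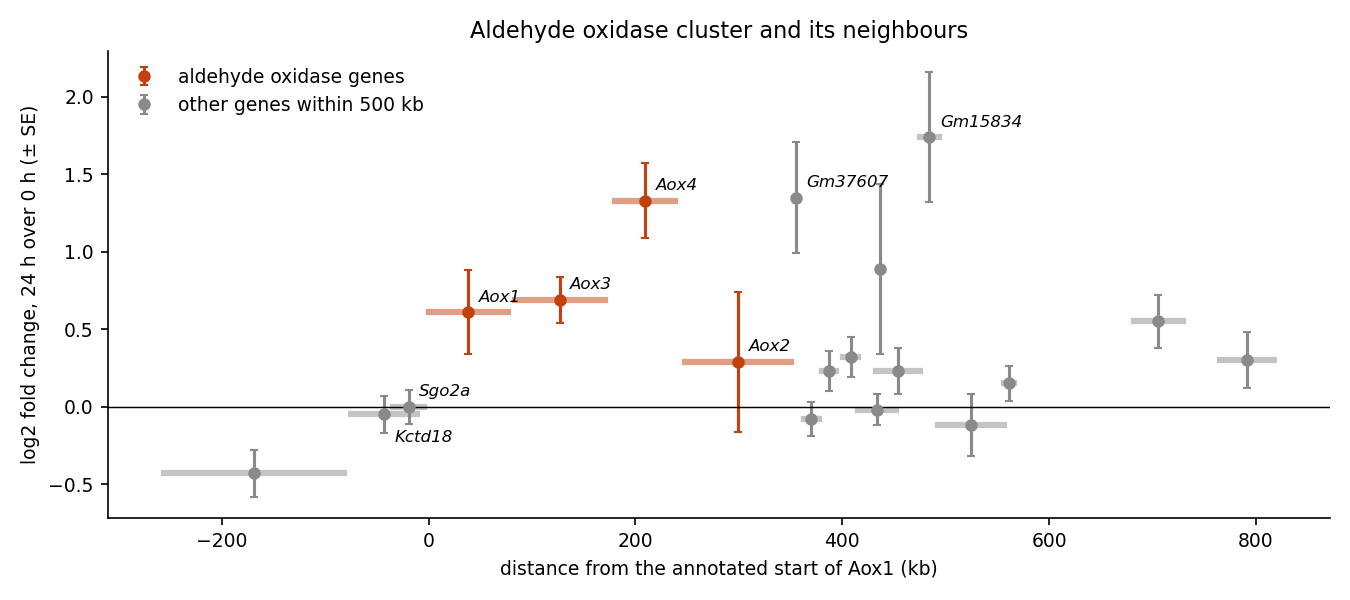
Log2 fold change at 24 h over 0 h (± SE) against the distance from the annotated start of Aox1 in kb, for the 4 aldehyde oxidase genes and the 15 other genes tested within 500 kb. Thick bars span each gene. Aox4 lies at 1.33 and Aox1 and Aox3 at 0.61 and 0.69, while Sgo2a and Kctd18, just before the cluster, lie at 0.00 and -0.05.

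Around Xdh, 9 genes of the count table lie within 500 kb, 5 were tested and 0 passed edgeR's test, beside 6.80% of all genes tested. With 5 genes a count of 0 is close to that share. An unadjusted p under 0.05 in edgeR was seen for 1 of the 5, as for 4642 of all 18005 genes. DESeq2's Wald test called 1 of the 5 (Memo1) and limma voom 0. Over all genes DESeq2's Wald test called 1037 higher and 950 lower. Memo1, 248.8 kb away, was at 33.5 and 36.7 CPM at 24 h, against 25.7 and 25.5 CPM at 0 h, a difference of 0.45 on the log2 scale (SE 0.12; edgeR, adjusted p = 0.0708). Ehd3, the closest tested gene at 51.8 kb and a membrane trafficking ATPase, had a log2 fold change of -0.20. Dpy30, a core subunit of histone H3 lysine methyltransferase complexes, Spast, which severs microtubules, and the zinc transporter gene Slc30a6 were at 0.12, 0.23 and -0.13.

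Outside the 4 members, 10 genes that make or use the molybdenum cofactor were tested, Aox2 among them. Of these, 0 were called by edgeR, DESeq2 or limma voom. In edgeR 6.80% of all genes tested were called, and with 10 genes a count of 0 is close to that share. An unadjusted p under 0.05 in edgeR was seen for 2 of the 10, as for 4642 of all 18005 genes. The median log2 fold change was -0.11, beside -0.01 for all genes tested. Mocs1, which starts the synthesis of the cofactor, was at 12.4 and 11.3 CPM at 24 h and 18.3 and 14.0 CPM at 0 h, a difference of -0.45 on the log2 scale (SE 0.17; edgeR, adjusted p = 0.159). Mocos, which adds the sulfur atom that aldehyde oxidases and xanthine dehydrogenase need, had 54 to 84 reads per library and a log2 fold change of -0.43 (adjusted p = 0.323). Gphn, whose product gephyrin inserts the molybdenum, and Mocs2 were at 0.04 and 0.08. The other molybdenum enzymes of this list did not pass either. Marc1, an amidoxime-reducing component, had 22 and 10 reads at 24 h against 3 and 5 at 0 h (log2 2.00, SE 0.66; edgeR, adjusted p = 0.121), its much more abundant relative Marc2 was at -0.10, and the sulfite oxidase gene Suox at -0.14.

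Purine breakdown and salvage had 2 genes that rose, and of the genes acting after xanthine dehydrogenase, Uox, Urad and Allc had at most 10 reads per library. Of 18 genes listed, 17 were in the table and 13 were tested, with a median log2 fold change of 0.08. Of these 13, 2 rose, 0 fell and 11 did not pass, beside 4.15% higher and 2.65% lower of all genes tested. Ada, which deaminates adenosine to inosine, upstream of xanthine dehydrogenase, rose to 25.1 CPM in both 24 h libraries, against 13.6 and 12.7 CPM at 0 h. That is a log2 fold change of 0.93 (SE 0.13; edgeR, adjusted p = 0.0115). Ampd3, an AMP deaminase, rose to 52.9 and 49.96 CPM at 24 h, against 32.5 and 29.1 CPM at 0 h, a difference of 0.74 on the log2 scale (SE 0.12; edgeR, adjusted p = 0.0175), and it overlaps Rnf141 on the other strand, so its counts are uncertain. Uox, which oxidises uric acid further in mice, had 0 reads in both 24 h libraries and 1 and 10 at 0 h, and it overlaps Dnase2b on the other strand. Urad, Allc and the guanine deaminase gene Gda, which also feeds xanthine, had 0 to 7 reads per library, while Urah was at 21.3 and 17.8 CPM at 24 h against 14.5 and 13.5 at 0 h (adjusted p = 0.1). The salvage enzymes Hprt and Aprt, which return purine bases to nucleotides, were among the abundant ones, with log2 fold changes of 0.20 and -0.41 (adjusted p = 0.389 and 0.0946).

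De novo purine synthesis was abundant, and 1 of its 13 genes rose, beside 4.15% of all genes tested. Prps2, which makes the ribose phosphate donor, rose to 148.2 and 151.4 CPM at 24 h, against 67.7 and 88.6 CPM at 0 h, a difference of 0.94 on the log2 scale (SE 0.14; edgeR, adjusted p = 0.0151). The other 12 did not pass, and 0 fell. Paics, Gart and Ppat, which act in the ring-building steps, had log2 fold changes of -0.05, -0.06 and -0.06, and the list's median was 0.00. Paics and Ppat overlap on opposite strands and Prps2 overlaps Gm26368 and Gm15239, so their counts are uncertain.

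Aldehyde dehydrogenases, which oxidise many of the same aldehydes with NAD or NADP, mostly did not pass the test. Of 19 listed, 16 were tested, of which 1 rose, 1 fell and 14 did not pass, beside 4.15% higher and 2.65% lower of all genes, and their median log2 fold change was 0.06. Aldh1a2, which makes retinoic acid from retinaldehyde in the embryo, fell to 3.16 and 3.27 CPM at 24 h, against 7.53 and 6.15 CPM at 0 h. Its log2 fold change was -1.09 (SE 0.19; edgeR, adjusted p = 0.0214). Aldh1a3, another retinaldehyde dehydrogenase, was at 11.7 and 10.3 CPM at 24 h and 6.86 and 8.35 CPM at 0 h and did not pass (adjusted p = 0.109). Aldh1a1 had 1 to 7 reads per library. Aldh1l2, a mitochondrial folate enzyme, rose to 18.1 and 18.3 CPM at 24 h, against 10.8 CPM in both 0 h libraries, a difference of 0.75 on the log2 scale (SE 0.13; edgeR, adjusted p = 0.0228). Aldh1l2 overlaps D10Wsu102e and Aldh1a2 overlaps Gm48124 on the other strand.

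Aox1 is known as a target of NRF2, which drives genes of the antioxidant response, so 15 other NRF2 targets were counted. Of these 2 rose, 0 fell and 13 did not pass, with a median log2 fold change of 0.08. Gclc, the catalytic subunit of the enzyme that limits glutathione synthesis, rose to 149.8 and 146.1 CPM at 24 h, against 88.8 and 92.1 CPM at 0 h, a difference of 0.71 on the log2 scale (SE 0.10; edgeR, adjusted p = 0.0122). The transporter gene Abcc4, which overlaps Mir6391 and Gm49033, rose by 0.49 on the log2 scale (SE 0.10, adjusted p = 0.0373 in edgeR). Nqo1 and Hmox1, the targets most often used as markers, were at -0.29 and 0.08 (adjusted p = 0.203 and 0.674). Over the 5 enzyme and target lists, 6 of 67 genes tested rose (8.96%) and 1 fell (1.49%), beside 4.15% and 2.65% of all genes. Without 24 h replicate A, 1 of the genes rose and 0 fell, and without 24 h replicate B 1 rose and 1 fell. Without 0 h replicate A 21 rose and 12 fell, and without 0 h replicate B 22 rose and 23 fell. With the GC and length trend of each library removed 14 rose and 14 fell.

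**Figure D3:**
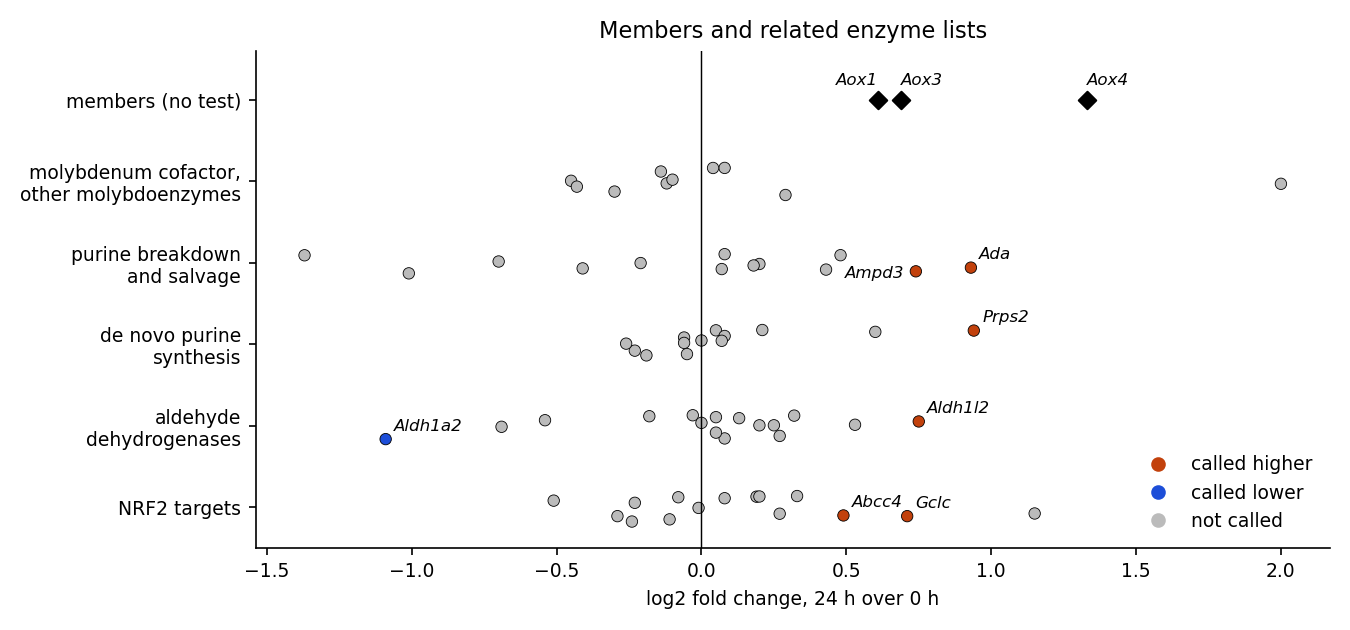
Log2 fold change at 24 h over 0 h of each tested gene in the 5 enzyme and target lists, with Aox1, Aox3 and Aox4 above them as diamonds. Colours mark genes called higher or lower by edgeR at an adjusted p under 0.05, and height within a row has no meaning. The called genes are Ada, Ampd3, Prps2, Aldh1l2, Gclc and Abcc4 (higher) and Aldh1a2 (lower).

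In bulk RNA, fewer cells of a type and less RNA per cell cannot be told apart, so markers of the cells the cultures could hold were counted. All 8 stem cell markers were abundant, with a sum of 4616 and 4603 CPM at 24 h and 5342 and 5271 CPM at 0 h, and Pou5f1 and Zfp42 fell by 0.54 and 0.45 on the log2 scale (edgeR, adjusted p = 0.044 and 0.0442). Zfp42 did not pass with upper-quartile scaling or library size alone (adjusted p = 0.0519 and 0.057), and neither gene passed without 24 h replicate A (0.309 for Pou5f1 and 0.501 for Zfp42, edgeR) or B (0.341 and 0.572). The number of the 8 that fell was 6 with GC and length offsets, and with replicate A or B of 0 h left out it was 6 or 5. All 15 feeder fibroblast markers had reads, from 0 to 4 per library for Lum and 2 to 6 for Dcn up to 2898 or more for Col1a1. Their sum was 143.2 and 140.3 CPM at 24 h, within the 174.1 and 131.0 CPM at 0 h. Of the 13 tested, 0 rose and 1, Pdgfrb, fell, to 6.04 and 5.85 CPM at 24 h, against 13.6 and 10.6 CPM at 0 h (edgeR, adjusted p = 0.0217, and 0.0644 without 24 h replicate B). Of 12 markers of hepatocytes and visceral endoderm, of which hepatocytes are known for high aldehyde oxidase, Serpina1a was at 0 in every library, Alb and Afp had at most 1 read and Ttr at most 3. They summed to 12.6 and 12.5 CPM in the 24 h libraries, against 12.7 and 11.1 CPM in those of 0 h. The largest part was Apoa2, at 6.72 and 5.85 CPM at 24 h and 8.08 and 6.95 CPM at 0 h. The 8 tested had a median log2 fold change of 0.49, with 4 above 0 and 4 below. Apob and Trf were at 1.74 and 1.21 and did not pass (edgeR, adjusted p = 0.0807 and 0.0708). Of 8 tested, 1 rose, which was Hnf4a, a transcription factor of endoderm, with 1.79 and 2.07 CPM at 24 h against 0.534 and 0.514 CPM at 0 h (log2 1.88, SE 0.28; edgeR, adjusted p = 0.0143). Of all genes tested, 4.15% were called higher and 2.65% lower. Hnf4a overlaps Hnf4aos on the other strand, and the part of these markers in the values of the aldehyde oxidases was not tested.

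The genes with the pattern closest to each member were named by the root mean square difference of log2 CPM over the 4 libraries, after subtraction of each gene's 0 h mean, among 14365 other genes. A near pattern over 4 libraries among so many genes is a description only. Nearest to Aox1 were Hook3 (0.0122), a dynein adaptor, Itgae (0.0275), an integrin subunit, and Gm14412 (0.0322). With GC and length offsets the log2 fold changes of these 3 were 0.31, 0.6 and 0.44, beside 0.49 for Aox1. In the main setting they were 0.61, 0.64 and 0.62, beside 0.61 for Aox1. Nearest to Aox3 were Ahr (0.0246), the aryl hydrocarbon receptor, Apom (0.0278), an apolipoprotein, and Ackr4 (0.0354), a chemokine scavenger. Ahr was at 27.1 and 23.8 CPM at 24 h and 16.1 and 15.5 CPM at 0 h. Nearest to Aox4 were Rps6kl1 (0.0277), Susd3 (0.0299) and the potassium channel gene Kcnt2 (0.0398). Between the members the same measure was 0.194 for Aox1 and Aox3, 0.503 for Aox3 and Aox4 and 0.621 for Aox1 and Aox4. The counts of Hook3, Itgae, Ahr, Ackr4 and Kcnt2, which overlap other genes, are uncertain.

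**Figure D4:**
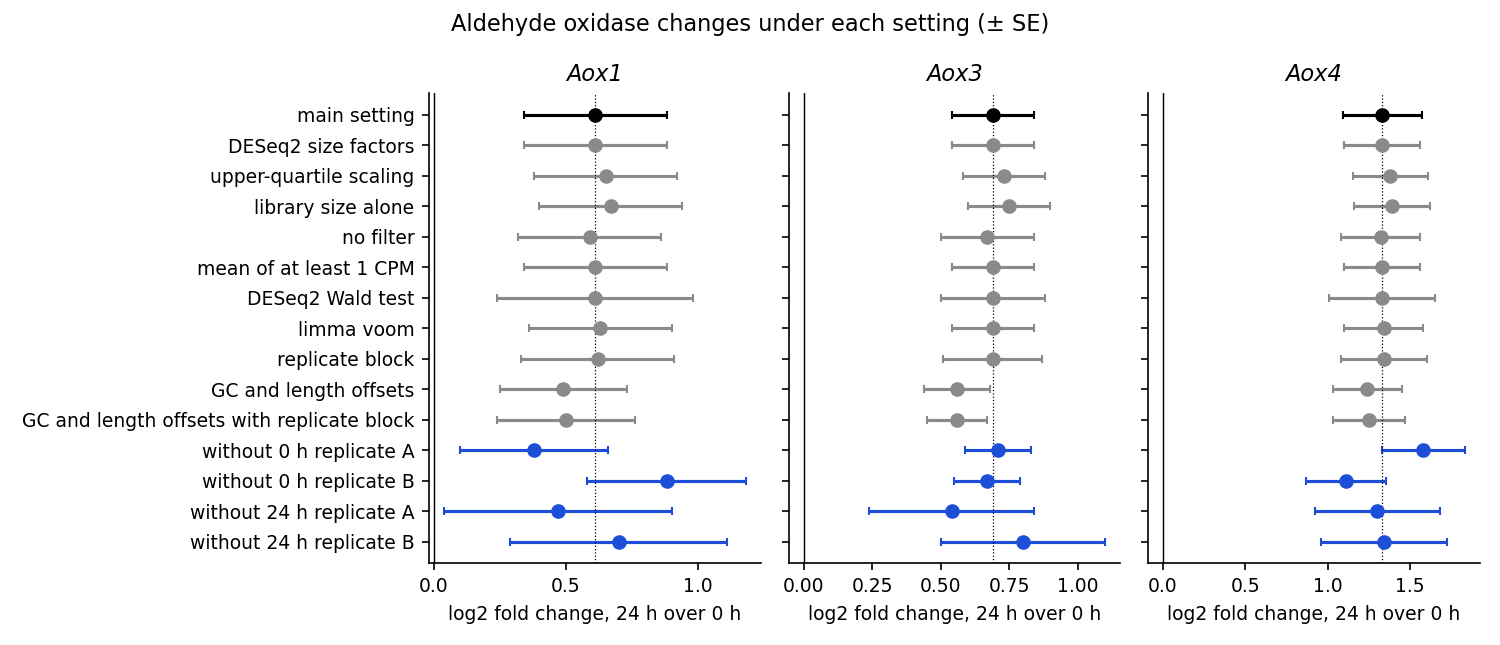
Log2 fold change at 24 h over 0 h (± SE) of Aox1, Aox3 and Aox4 in the main setting (black), under other scalings, filters, tests and corrections (grey) and without each library (blue). Aox1 ranges from 0.38 to 0.88, Aox3 from 0.54 to 0.80 and Aox4 from 1.11 to 1.58.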

How the data were processed

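Per the labels' protocols, polyadenylated RNA went into stranded libraries, sequenced from 1 end for 50 nt. The authors deposited a table of unnormalized counts by Ensembl identifier. The submitters' processing notes list TopHat2, HTSeq, DESeq and mm10 without saying which step each served. How strand was set and which annotation was counted is not given in the sources used here, so reads of overlapping genes cannot be told apart.

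Symbols, coordinates and exon lengths came from GENCODE M21 (GRCm38), and promoters from RefSeq (GRCm38.p6), which held 3 of the 4 members and Aox2. No symbol was found for 563 of the 45706 identifiers, which hold 0.107% of the counts. The members and gene lists were chosen with earlier results of these data known.

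Low genes were removed by filterByExpr (at least 10 counts, 15 in total), TMM scaling was applied, and groups were compared in edgeR 4.0.16 by the quasi-likelihood F test (R 4.3.3, legacy=TRUE, 2-sided, all 4 libraries, no block), with Benjamini-Hochberg adjustment over 18005 genes and a threshold of 0.05. With 2 libraries per group the p-values rest on the spread between these samples, drawn for each gene towards a trend over all genes tested. The SE given with edgeR is the log2 fold change, without its sign, divided by the square root of F. Counting intervals and limits cover counting error only.

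Genes named are the members, up to 4 genes per list past the test in order of p (where none passed, the 2 with the lowest p), the 6 nearest tested neighbours, and 3 genes per member by likeness. Other genes named were chosen for their role after their values were seen. Alternatives were DESeq2 1.42.0, limma 3.58.1 (voom), 3 scalings, 2 filters, the letters A and B as a block, offsets for GC content and length, and each library left out. Coding sequences were aligned with Biopython 1.88, and figures drawn with matplotlib 3.10.9.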

Additional observations from a re-analysis of the deposited data

How the results depend on the processing

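Aox1, Aox3 and Aox4 were higher at 24 h in every alternative run, and Xdh in those that left a 0 h read. The log2 fold change of Aox1 was 0.38 to 0.88 with a library left out, of Aox3 0.54 to 0.80, of Aox4 1.11 to 1.58 and of Xdh, by summed counts, 2.65 to 4.0. Aox3 was at 0.56 with GC and length offsets and the replicate block. A fit with 1 library left out takes the spread of the remaining pair for the group of 1. Depth limits Xdh and Aox2, with at most 8 and 17 reads per library.

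Counts of calls depended on the setting far more. In the reported settings 748 genes were higher and 477 lower, with 1230 and 1359 without a filter, 950 lower in DESeq2's Wald test, 1658 and 1595 with the replicate block, 2021 and 3461 with GC and length offsets (36.9% higher, against 61.1%) and 2378 and 4117 with both. Without 1 library 338 to 4352 were higher and 167 to 5064 lower. The cause was not tested.

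Calls per list moved as follows. Without a filter, purine breakdown had 1 lower, de novo synthesis 2 higher, aldehyde dehydrogenases 2 lower, NRF2 targets 1 lower and the Aox neighbours 2 higher. DESeq2's Wald test gave 2 higher in de novo synthesis, 1 lower NRF2 target and 1 higher neighbour at each locus. Library size alone gave 1 higher neighbour at each locus, and upper-quartile scaling 1 at the Aox cluster. The replicate block gave 1 higher molybdenum gene, 4 higher and 1 lower in purine breakdown, 2 higher in de novo synthesis, 2 higher and 2 lower aldehyde dehydrogenases, 1 lower NRF2 target, and 2 Aox and 1 Xdh neighbours higher. GC and length offsets gave 1 lower molybdenum gene, 5 higher and 2 lower in purine breakdown, 2 and 4 in de novo synthesis, 4 and 3 among aldehyde dehydrogenases, 4 lower NRF2 targets, 2 and 2 Aox neighbours and 1 lower Xdh neighbour. With the block added these were 1 and 1, 5 and 2, 2 and 4, 4 and 3, 4 and 5 (NRF2 targets), 2 and 5, and 1 and 1.

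Without 1 library the higher and lower calls were 0 to 1 and 0 to 5 (molybdenum list), 0 to 6 and 0 to 3 (purine breakdown), 1 to 5 and 0 to 4 (de novo synthesis), 0 to 8 and 0 to 5 (aldehyde dehydrogenases), 0 to 5 and 0 to 6 (NRF2 targets), 0 to 7 and 0 to 3 (Aox neighbours) and 0 to 3 and 0 to 1 (Xdh neighbours). For the marker lists they were 0 to 2 and 0 to 4 (feeder), 1 to 2 and 0 to 1 (hepatocyte and visceral endoderm) and 0 to 2 and 0 to 6 (stem cell). Higher hepatocyte and endoderm markers were 2 without a filter and 3 with the replicate block, with GC and length offsets and with both. Feeder markers had 1 higher with the offsets, with or without the block. Stem cell markers had 1 lower with upper-quartile scaling or library size alone, and 6 with the offsets, with or without the block. The sign turned for Kctd18 with library size alone (0.01), and for Sgo2a without a filter (-0.01), with GC and length offsets (-0.2) and with the block added (-0.19). Without 1 library Sgo2a was at -0.07 to 0.07 and Bzw1 at -0.18 to 0.03. Of 461 values of 33 named genes under alternatives, 371 kept their direction and side of the threshold, 21 lost the call, 62 gained one and 7 turned sign.

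The labels do not say what the letters A and B share. The A minus B differences at 24 h and 0 h correlated at 0.0616 across genes. Since 0 h replicate A followed GC content (r = 0.487), this value cannot tell whether the letters mark a shared clone or preparation.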
